A study of Mus musculus with 55 samples.

Results

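Female mice without Cnih3 (KO) were compared between diestrus and estrus, 6 mice against 6, out of 55 mice sequenced in the series. The members were chosen by genotype and stage as labelled: the diestrus mice were numbered 532, 643, 644, 645, 2592 and 7_1, and the estrus mice 12_1, 12_2, 12_3, 2593, 8_4 and 9_1. The 4 diestrus mice with a plain 3-digit number are shown apart throughout, and the remaining diestrus mice, 2592 and 7_1, are called the other diestrus mice. RNA came from the dorsal part of the hippocampus, 1 mouse per library, from the supernatant of a spun detergent lysate. All 12 mice carried the same global knock-out on a C57/BL6j background, in which exon 4 of Cnih3 is missing and the exons after it are out of frame, so the controls of the comparison are KO mice too. The stage of each mouse was read from the cells of a vaginal lavage over the days before tissue collection, with no hormone level used here. The 3-digit mice were 10.86 to 13.86 weeks old, 2592 was 16.29 and 7_1 was 23.43 weeks old, and the estrus mice were 13 to 20.71 weeks old.

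The estrous cycle of the mouse runs through proestrus, when estradiol peaks, to estrus, metestrus and diestrus, when progesterone is high and estradiol low before it rises again. Neurons and glia of the hippocampus carry receptors for both steroids, and spine density and plasticity of its pyramidal cells are known to move with the cycle. Cnih3 encodes an auxiliary protein of AMPA receptors, the main fast glutamate receptors, and helps to carry them to the surface. In whole tissue, fewer cells of a type and less RNA per cell cannot be told apart.

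The 12 libraries held 47373740 to 58799748 counts, and 16168 genes passed the filter on low counts. Levels are given as CPM, which are counts scaled to the library total, after normalisation for library composition. Differences are log2 fold changes, diestrus minus estrus, and a gene was called at a false discovery rate (FDR) under 0.05 in a limma model of all 55 mice. Kdm5d, on the Y chromosome, had at most 1 count in any of the 12 libraries. The summed counts of Cnih3 include the exons left in the knock-out, so the gene's level does not check the genotype.

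The diestrus mice did not form 1 group. The share of counts on 10 long non-coding RNAs that stay in the nucleus, such as Malat1 and Meg3, was 0.0884% to 0.109% in the 3-digit mice. It was 0.41% in 2592, 0.415% in 7_1 and 0.259% to 0.404% in the estrus mice. The other diestrus mice thus lay just above the estrus range and the 3-digit mice far below it. The 3-digit mice also had fewer genes with a count, 27077 to 27713 against 27885 to 29261 in estrus. Both measures move with every difference of the 3-digit mice given below, and their part in it was not tested. The lowest estrus mouse in the nuclear share was 12_1, which at 13 weeks was also the youngest of its group. KO proestrus mice 12_4 and 12_5, also 13 weeks old, had 0.415% and 0.417%. KO mice 14_4, 14_2 and 11_1, at 13.29, 13.57 and 13.57 weeks, had 0.274%, 0.354% and 0.368%. Low shares outside the 3-digit mice came at several ages. They were 0.104% in wild-type male 1949 (23.71 weeks), 0.17% in KO metestrus mouse 7_2 (22.57 weeks) and 0.173% in KO metestrus mouse 10_1 (18.71 weeks). Wild-type male 19_1 and wild-type proestrus mouse 20_2, both 12 weeks old, had 0.148% and 0.188%. No mouse without a 3-digit number was younger than 19_1 and 20_2. The 3-digit mice were all younger than 14 weeks, and in this comparison the number form, the age and the stage of a mouse overlap, so their parts in the results cannot be fully told apart. The 6 KO females under 14 weeks with other numbers are 12_1 and mice in metestrus and proestrus, aged 13 to 13.57 weeks. Their range is given below beside the leading genes as the young KO females. Mice 643, 644 and 645 were younger than all of these, at 11, 10.86 and 11 weeks, so the range is not matched to them in age.

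For KO diestrus against KO estrus, 4962 of the 16168 genes (30.7%) were called against estrus with limma, 1835 higher (11.3%) and 3127 lower (19.3%), while 7009 (43.4%) had an unadjusted p under 0.05. Most differences were small, with a median size of 0.421 on the log2 scale among called genes, and 472 called genes differed by more than 1, of which 24 were higher and 448 lower. The count rested on the weights that limma gave to single libraries. The 3-digit mice had weights of 1.61 to 1.74, while 2592 had 0.509, 7_1 had 0.433 and the estrus mouse 12_1 had 0.392. Without such weights 254 genes were called, with DESeq2 156 and with edgeR's quasi-likelihood test 14, although 3000 genes had an unadjusted edgeR p under 0.05. Among those 14 genes were Aldh1a1, Ndrg2, Dio2 and Fxyd6, which were higher, and Cpm, which was lower.

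Split by number, the 3-digit mice differed from estrus in 6203 genes (38.4%), 2567 higher (15.9%) and 3636 lower (22.5%), and the other diestrus mice in 0. The pair 2592 and 7_1 had 123 genes at an unadjusted limma p under 0.05, or 0.761% of those tested, with 0 genes called by edgeR and 1 by DESeq2. The 3-digit mice differed from estrus by each tool, with 2325 genes called without weights, 2407 by edgeR and 2692 by DESeq2, and 2192 genes called by all of these and limma. Tested against each other, 3-digit and other diestrus mice differed in 1233 genes (7.63%), 194 higher (1.2%) and 1039 lower (6.43%) in the 3-digit mice and 3786 (23.4%) at an unadjusted p under 0.05, with 511 called by edgeR and 593 by DESeq2. The 3-digit and the other mice were compared with the same 6 estrus mice, so those comparisons are not independent of each other. Of the 4962 genes called over all 6 mice, 4934 were called in the 3-digit mice and 34 had an unadjusted p under 0.05 in the same direction in the other mice. The median log2 fold change of the 1835 higher genes was 0.304 over all 6 mice, 0.343 in the 3-digit mice and 0.0699 in the other mice. For the 3127 lower genes it was -0.532, -0.60 and -0.0736.

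**Figure D1:**
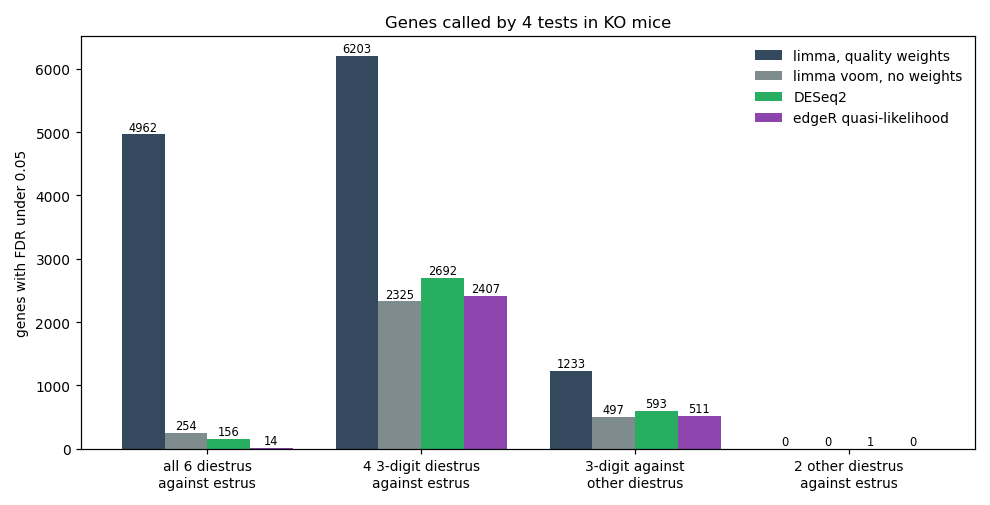
Number of genes with an FDR under 0.05 (vertical axis, from 0) in 4 comparisons of KO mice (horizontal axis), each by 4 tests (bars). The comparison of all 6 diestrus mice falls from 4962 to 14 genes across the tests, that of the 4 3-digit mice stays at 2325 or more, and that of the 2 other diestrus mice is at 1 or 0.

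The levels of the 4 3-digit mice lay above all 6 estrus mice at 964 genes (5.96%) and below them at 1519 (9.4%). Among 2321 genes that were called in the 3-digit mice and whose 4 levels lay wholly outside the estrus range, 835 above and 1486 below, the level in 7_1 lay within the estrus range at 1942 (83.7%). The level in 2592 lay within it at 1654 (71.3%). In 2592 the level reached the 3-digit range at 223 of these genes and in 7_1 at 85. The genes were chosen for the gap between 3-digit and estrus mice, so the position of 2592 and 7_1 is given as a description. Mice 2592 and 2593, diestrus and estrus, have consecutive numbers and the same age of 16.29 weeks.

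**Figure D2:**
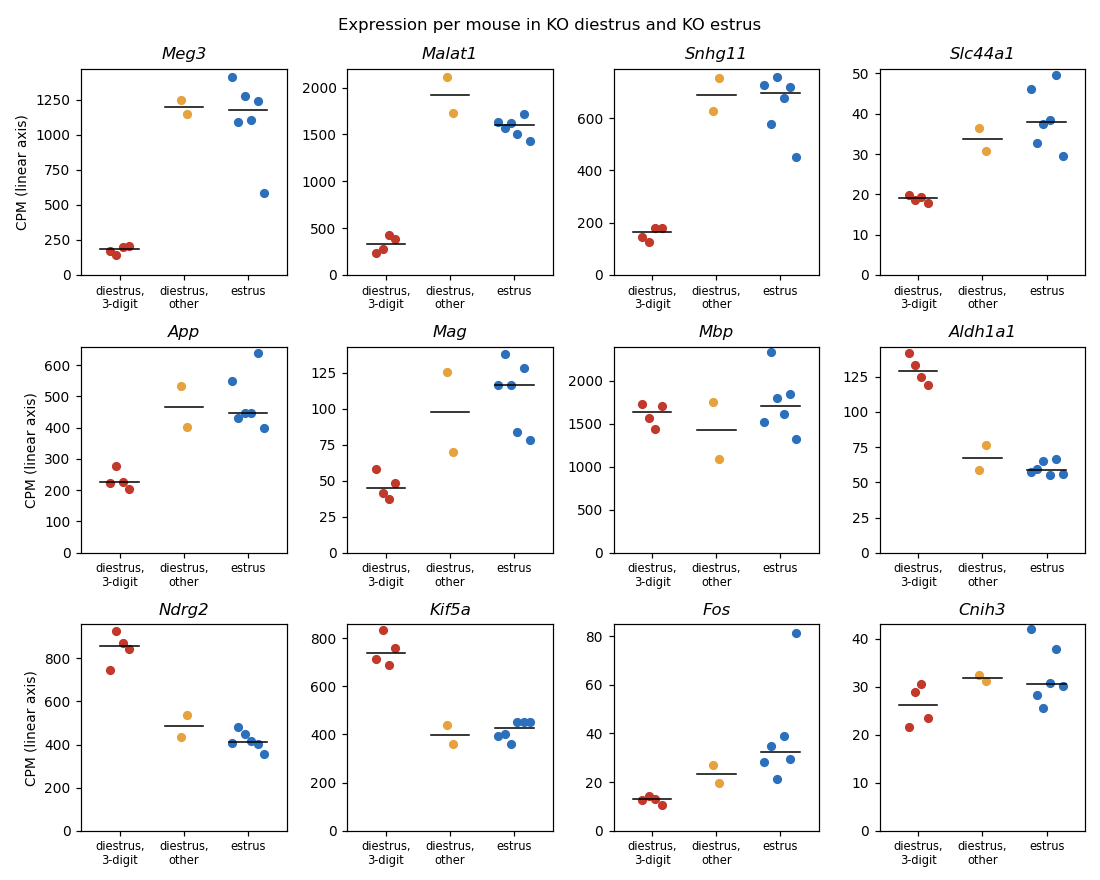
Level of 12 genes in each KO mouse (CPM, linear axis from 0), in the 4 3-digit diestrus mice, the 2 other diestrus mice and the 6 estrus mice, with points for mice and a line for the median. In Meg3, Malat1, Snhg11, Slc44a1, App and Mag the 3-digit mice lie below all other mice, in Aldh1a1, Ndrg2 and Kif5a above them, and in Mbp and Cnih3 the sets overlap.

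Nuclear long non-coding RNAs were among the most lowered genes. Meg3 (ENSMUSG00000021268, GRCm38 chr12:109541001-109571726), a long non-coding RNA expressed from the maternal chromosome, had 205, 201, 144 and 168 CPM in mice 532, 643, 644 and 645. It had 1149 CPM in 2592 and 1253 in 7_1, and in estrus 583 at the lowest, in 12_1, with a median of 1177 and 1411 at the highest. The 3-digit mice thus lay below every other KO mouse of the comparison, and the other diestrus mice lay inside the estrus range. The log2 fold change was -2.36 (SE 0.349, FDR 9.0e-06) over all 6 mice and -2.67 (FDR 2.9e-08) in the 3-digit mice, which is 6.37 times lower, against 0.058 (unadjusted p = 0.901) in the other mice. The 6 young KO females had 583 to 1427 CPM.

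Malat1 (chr19:5795690-5802672), which gathers in nuclear speckles beside splicing factors, had 382, 420.2, 276 and 236 CPM in the 3-digit mice in the same order. It stood at 1732 and 2109 CPM in the other diestrus mice and at 1433 to 1714 with a median of 1596 in estrus. Its level in the 3-digit mice was 4.95 times lower than in estrus (FDR 2.2e-08). Miat fell by 2.44 on the log2 scale in the 3-digit mice (FDR 2.1e-07), Snhg11 by 2.08 (FDR 1.1e-07) and Neat1, the scaffold of paraspeckles, by 1.60 (FDR 3.3e-06). Ftx, a non-coding RNA beside Xist, fell by 2.40 (FDR 2.2e-08), from 12.8 to 30.1 CPM in estrus to 3.16 to 5.13 in the 3-digit mice.

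Of the 10 nuclear long non-coding RNAs, 7 were lower and 1 was higher over all 6 mice, with a median log2 fold change of -1.55 against -0.0147 over all genes tested. In the 3-digit mice 8 were lower and in the other mice 0, with a median of 0.0491 there. edgeR called 7 lower in the 3-digit mice. The exceptions were Rian, which had 147 to 158 CPM in the 3-digit mice against 137 to 185 in estrus (FDR 0.455), and Peg13, which rose by 0.38 (FDR 0.00025). Peg13 was also one of the 64 genes at which all 6 diestrus mice lay on one side of all 6 estrus mice. Annotation classes differed from each other. Of 306 transcripts that the annotation marks as awaiting an experimental check (TEC), 163 (53.3%) were lower, and of 28 transcripts that lie inside introns 19 (67.9%) were lower, with a median of -1.35. Long intergenic, antisense and bidirectional-promoter RNAs did not share this, with 17.3% of 393, 14.5% of 310 and 11.3% of 71 lower, against 19.3% of all genes tested. Of 1168 processed pseudogenes, which are copies of spliced messenger RNA, 145 (12.4%) were higher, close to the 11.3% over all genes tested. Only 6 (0.514%) were lower, against 19.3% over all genes tested. Reads on such copies can stem from their parent genes.

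Genes for regulators of splicing were lower as well. Rsrp1, an arginine and serine rich protein, had 21.4 to 30.1 CPM in the 3-digit mice, 93.0 in 2592, 126 in 7_1 and 74.8 to 211 in estrus. Clk1, a kinase of splicing factors, had 23.7 to 26.2 CPM in the 3-digit mice against 37.8 to 71.6 in estrus, a log2 fold change of -1.27 (FDR 6.6e-08). Srsf2 fell by 1.29 (FDR 9.4e-07), Luc7l2 by 1.22 (FDR 1.1e-07) and Tia1 by 0.81 (FDR 3.6e-08) in the 3-digit mice. Of the 19 SR splicing factors, their kinases and cold-inducible RNA-binding proteins on the list, 10 were lower and 0 higher over all 6 mice, with a median of -0.295. The core proteins of the spliceosomal particles did not share this, with 2 of 20 higher and 2 lower and a median of 0.104. Beside both lists stand 11.3% higher and 19.3% lower over all genes tested. In the 6 young KO females Clk1 stood at 34.8 to 66.1 CPM, above all 3-digit mice.

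The 250 bases before the start of 4 of the leading genes are shown to place them beside elements that the cycle's hormones and neuronal activity are known to act on. The starts are those of RefSeq on GRCm38.p6. The Dio2 window ends 600 bases before the start of the gene as placed below, and the Ndrg2 window, which precedes the start of its principal transcript, lies inside the span given for the gene. The sequences are written 5′ to 3′ on the strand of the gene. Capitals mark AGGTCA, the half-site of an estrogen response element, TGTTCT, the half-site of glucocorticoid and progesterone response elements, and TGACGTCA, the cAMP response element, on either strand.
Meg3, chr12:109540746-109540995, plus strand: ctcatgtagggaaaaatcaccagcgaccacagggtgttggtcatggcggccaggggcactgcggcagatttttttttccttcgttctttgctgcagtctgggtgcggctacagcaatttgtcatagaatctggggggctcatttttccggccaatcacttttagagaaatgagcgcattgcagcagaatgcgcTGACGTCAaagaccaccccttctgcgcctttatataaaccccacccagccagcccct
Malat1, chr19:5802673-5802922, minus strand: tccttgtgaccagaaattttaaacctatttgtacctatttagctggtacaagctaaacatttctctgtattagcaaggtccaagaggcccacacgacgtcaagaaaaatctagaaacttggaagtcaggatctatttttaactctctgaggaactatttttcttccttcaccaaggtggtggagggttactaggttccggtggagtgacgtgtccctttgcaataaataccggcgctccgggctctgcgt
Ndrg2, chr14:51913489-51913738, minus strand: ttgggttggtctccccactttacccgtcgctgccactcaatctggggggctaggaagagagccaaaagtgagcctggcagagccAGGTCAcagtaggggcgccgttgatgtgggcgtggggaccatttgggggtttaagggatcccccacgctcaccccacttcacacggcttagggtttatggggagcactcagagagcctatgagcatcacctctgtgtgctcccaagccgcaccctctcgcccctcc
Dio2, chr12:90739039-90739288, minus strand: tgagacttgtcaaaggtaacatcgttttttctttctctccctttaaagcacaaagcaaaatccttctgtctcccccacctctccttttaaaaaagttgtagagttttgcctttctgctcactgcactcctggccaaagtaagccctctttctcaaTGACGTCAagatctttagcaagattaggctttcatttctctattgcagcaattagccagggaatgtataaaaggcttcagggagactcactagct
Among all 32851 promoter windows of this length, 14.0% hold the first element, 16.1% the second and 1.55% the cAMP response element. Meg3 and Dio2, which differed in opposite directions, each hold 1 cAMP response element, Ndrg2 holds 1 estrogen half-site, and Malat1 holds none of the 3. Of the genes tested, 11314 had a window by symbol. The estrogen half-site was in 12.4% of the windows of genes called higher, 10.5% of those called lower and 10.7% of those of all genes tested. The glucocorticoid and progesterone half-site was in 12.5%, 9.84% and 11%. The cAMP element was in 3.07%, 2.84% and 2.48%. The cAMP element was added to the search after the sequences were seen. A match is a description of the letters only.

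Among the genes that rose, Aldh1a1 (chr19:20492715-20643465), which makes retinoic acid, had 119, 125, 133 and 142 CPM in the 3-digit mice, 76.2 in 2592, 58.6 in 7_1 and 55.6 to 66.5 with a median of 58.5 in estrus. It was 2.17 times higher in the 3-digit mice than in estrus (FDR 1.1e-08), and the young KO females had 52.0 to 70.3 CPM. Mouse 2592 lay above all estrus mice, and 7_1 lay among them. Ndrg2 (chr14:51905271-51914158), a cytosolic protein of astrocytes, had 842, 873, 929 and 745 CPM in the 3-digit mice against 536 in 2592, 437 in 7_1 and 355 to 482 in estrus. Its log2 fold change was 0.91 (SE 0.125, FDR 5.6e-06) over all 6 mice and 0.99 (FDR 3.6e-08) in the 3-digit mice.

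Dio2 (chr12:90724552-90738438), the astrocyte deiodinase that turns thyroxine into active thyroid hormone, had 24.6 to 31.7 CPM in the 3-digit mice. It had 13.1 and 13.8 in the other diestrus mice and 10.1 to 15.1 in estrus, so the 3-digit mice lay above all the rest. Aldoc, a glycolytic enzyme of astrocytes, rose by 0.74 in the 3-digit mice (FDR 3.0e-06), S100b, a calcium-binding protein, by 0.70 (FDR 1.4e-05) and Aldh1l1, a folate enzyme, by 0.78 (FDR 5.0e-06). Yet the 15 astrocyte markers as a list did not move one way, with 4 higher and 1 lower over all 6 mice and a median of 0.107. Aqp4, the water channel of astrocyte endfeet, was the lower one at -0.37 (SE 0.133, FDR 0.0303), and the glutamate transporter Slc1a2 had 0.11 (FDR 0.482). Slc1a3 and Gja1, a second glutamate transporter and a gap junction protein, had 0.015 (FDR 0.931) and 0.014 (FDR 0.948).

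Among neuronal genes the motor protein Kif5a stood out, with 688 to 833 CPM in the 3-digit mice, 359 in 2592, 438 in 7_1 and 361 to 453 in estrus. Its log2 fold change was 0.82 (FDR 1.7e-07) in the 3-digit mice and -0.09 (unadjusted p = 0.601) in the others, and the difference between those sets was 0.91 (FDR 0.00063). Of the 25 motor genes 4 were higher and 2 lower, with a median of -0.0103, beside 11.3% higher and 19.3% lower over all genes tested. Fxyd6, a regulator of the sodium pump, had 91.3 to 120 CPM in the 3-digit mice against 48.7 to 66.8 in estrus, with 73.4 in 2592. Asrgl1, an asparaginase, rose by 0.52 over all 6 mice (FDR 2.3e-05), the cohesin subunit Smc1a by 0.49 (FDR 2.7e-05) and the phosphatase subunit Ppp2r2b by 0.44 (FDR 5.8e-05). Kyat3, an enzyme of the kynurenine pathway, rose by 0.75 (FDR 4.8e-05), and it was higher in the other mice too, at 0.47 with an unadjusted p of 0.0268. Its levels there were 10.1 CPM in 2592 and 6.11 in 7_1, against 3.41 to 7.74 in estrus.

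Of 31 proteasome subunits 18 were higher and 0 lower over all 6 mice, with a median of 0.223 against -0.0147 over all genes. Of 80 cytosolic ribosomal proteins 20 were higher and 0 lower (median 0.235), and of 93 nuclear-encoded genes of the respiratory chain 37 were higher and 2 lower (median 0.237). The shares over all genes tested were 11.3% higher and 19.3% lower. Psmc1, an ATPase of the proteasome, had 426 to 460 CPM in the 3-digit mice and 302 to 444 in estrus. Rpl37 rose by 0.35 (FDR 0.0296) and the cytochrome oxidase subunit Cox4i1 by 0.44 (FDR 0.0018). In the 3-digit mice the counts were 20 of 31, 34 of 80 and 47 of 93 higher, beside 15.9% over all genes tested. There edgeR called only 0, 2 and 5 of these genes higher, with 2407 of all 16168 genes called by it in either direction. Rpl37 reached 728 CPM and Cox4i1 1284 CPM among the young KO females, above the 3-digit mice.

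The mitochondrial genome itself was split by RNA class. Of its 13 messenger RNAs 1 was higher, mt-Nd4l, with 3.39 to 4.70 CPM in the 3-digit mice, 1.66 and 2.51 in the others and 0.489 to 6.94 in estrus. The highest value was in estrus mouse 12_1, so the sets overlapped although the fitted log2 fold change was 1.40 (SE 0.389, FDR 0.0059), and against 12_1 alone it was -0.79. Of the 9 mitochondrial transfer RNAs tested 7 were higher over all 6 mice, with a median of 1.01, beside 11.3% of all genes tested. Among other genes with large fitted increases, Etnppl, an astrocyte enzyme of lipid breakdown, had 23.5 to 29.5 CPM in the 3-digit mice and 3.91 to 16.7 in estrus. Car8 and Wfdc1 rose by 1.08 and 1.02 (FDR 0.0062 and 0.0021).

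Among the genes that fell, Slc44a1, a choline transporter, had 18.0 to 19.7 CPM in the 3-digit mice against 29.5 to 49.6 in estrus, a log2 fold change of -1.08 (FDR 4.1e-08). Abcc5, an export pump, fell by 0.91 (FDR 4.1e-08), Pxdn, a secreted peroxidase of the matrix, by 1.24 (FDR 5.9e-08), and Thpo, the hormone thrombopoietin, by 1.77 (FDR 4.0e-08). In the other diestrus mice these 4 genes had log2 fold changes from -0.25 to 0.00055, with unadjusted p from 0.195 to 0.998. Tex50, at 1.16 to 2.66 CPM in estrus, was at 0.0416 to 0.291 in the 3-digit mice and 1.45 and 1.55 in the others. Ankrd16, which acts with an aminoacyl-tRNA synthetase, fell by 0.90 (FDR 5.0e-08).

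App (chr16:84949685-85173766), the precursor of the amyloid peptide, had 203, 227, 276 and 224 CPM in the 3-digit mice. It had 402 in 2592, 533 in 7_1 and 398 to 638 with a median of 446 in estrus. The 3-digit mice were 2.16 times lower (FDR 4.0e-08) and lay below every other mouse, the young KO females included at 398 to 578. Its relative Aplp1 fell by 1.12 (FDR 2.6e-07). Of 14 genes of amyloid precursor processing 9 were lower and 0 higher over all 6 mice, with a median of -0.346, and edgeR called 9 of them lower in the 3-digit mice. With limma 19.3% of all genes tested were lower over all 6 mice. Of 17 chaperones and folding enzymes of the endoplasmic reticulum 12 were lower and 0 higher, with a median of -0.475. Hspa5 (BiP), their main chaperone, had 97.5 to 109 CPM in the 3-digit mice, 158 (2592) and 128 (7_1) in the others and 133 to 205 in estrus. Xbp1 and Sel1l, a regulator and a degradation factor of that compartment, fell by 0.82 (FDR 0.0421) and 0.76 (FDR 9.5e-05) over all 6 mice.

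Of 19 AMPA receptor subunits and partner proteins 12 were lower and 0 higher over all 6 mice, with a median of -0.393. Gria2, the subunit that sets calcium permeability, had 348 to 450.0 CPM in the 3-digit mice, 730 in 2592, 612 in 7_1 and 521 to 748 in estrus. Gria1 fell by 0.37 (FDR 0.0023), Shisa7, a receptor partner, by 0.81 (FDR 5.8e-05), and Nptx1, a secreted pentraxin that clusters receptors, by 0.73 (FDR 2.3e-05). Cnih3 itself, read from its remaining exons, had 23.5, 30.6, 28.8 and 21.6 CPM in the 3-digit mice, 31.2 and 32.4 in the others and 25.5 to 42.0 in estrus, and its difference was -0.31 (log2, SE 0.168, FDR 0.147). Its close relative Cnih2 had -0.05 (FDR 0.817).

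Of 6 NMDA receptor subunits 4 were lower, led by the obligatory subunit Grin1, with 17.5 to 18.9 CPM in the 3-digit mice, 25.1 in 2592, 46.6 in 7_1 and 32.4 to 59.7 in estrus. Of 12 GABA-A receptor subunits 5 were lower, led by Gabrg3 at -0.63 (FDR 0.00095), and of 31 potassium channels 20, led by Kcnt1 at -0.89 (FDR 0.00094) and Kcnj6 at -0.76 (FDR 0.00066). No member of these 4 lists was higher, beside 11.3% higher and 19.3% lower over all genes tested. edgeR called 9 of 19, 3 of 6, 5 of 12 and 13 of 31 lower in the 3-digit mice and 0 over all 6 mice. In the other mice the medians of the 4 lists were between -0.0382 and 0.00868.

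Of 18 presynaptic genes 5 were higher and 6 lower over all 6 mice, beside 11.3% higher and 19.3% lower over all genes tested. The higher ones were the release regulators Cplx1 at 0.31 (FDR 0.00336) and Cplx2 at 0.23 (FDR 0.00737), the fusion proteins Snap25 and Stx1a at 0.28 (FDR 0.0120) and 0.31 (FDR 0.00931), and the vesicle GTPase Rab3a at 0.24 (FDR 0.0258). The lower ones were the vesicle proteins Sv2a at -0.76 (FDR 2.3e-05), Sv2b, Syp, Syt1 and Syn1, and the vesicular glutamate transporter Slc17a7 at -0.58 (FDR 0.00044). Of 20 postsynaptic scaffolds and CaMKII genes 1 was higher, the kinase subunit Camk2a at 0.36 (FDR 0.00362), and 1 lower, the scaffold Homer1 at -0.25 (FDR 0.0436). Both postsynaptic counts lay below the shares over all genes tested. Sv2a had 102 to 138 CPM (range of the 3-digit mice) against 159 to 258 in estrus, 205 in 2592 and 220 in 7_1.

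Of 20 markers of mature oligodendrocytes 15 were lower and 0 higher over all 6 mice, with a median of -0.648, and edgeR called 14 lower in the 3-digit mice. With limma 19.3% of all genes tested were lower over all 6 mice. Mag, an adhesion protein of the inner myelin layer, had 48.2, 37.2, 41.1 and 58.3 CPM in the 3-digit mice, 70.0 in 2592, 125 in 7_1 and 78.4 to 138 with a median of 116 in estrus. Mouse 2592 lay just below the estrus range and 7_1 within it. The lipid enzyme Fa2h fell by 1.22 in the 3-digit mice (FDR 5.8e-07) and the iron carrier Trf by 1.21 (FDR 6.5e-06). Mbp, whose RNA is carried along the processes to be translated there, did not pass the test, with 1445 to 1726 CPM in the 3-digit mice against 1320 to 2338 in estrus (FDR 0.413). Mobp and Cnp had -0.11 (FDR 0.487) and -0.17 (FDR 0.258). Summed over the list, the 3-digit mice had 3896 to 4980 CPM, the others 4551 and 6322 and the estrus mice 5059 to 7568.

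Of 14 markers of oligodendrocyte precursors 9 were lower and 0 higher over all 6 mice, beside 19.3% lower over all genes tested. The median of the list was -0.531. Pdgfra at -0.25 (FDR 0.197), Cspg5 at -0.29 (FDR 0.0612) and Lhfpl3 at -0.049 (FDR 0.737) did not pass the test. Bmp4 at 0.14 (FDR 0.667) and Neu4 at 0.12 (FDR 0.470) did not pass it either. Enpp6, a mark of newly forming oligodendrocytes, was one of the 27 genes at which all 6 diestrus mice lay below all 6 estrus mice. It had 3.83, 2.87, 4.55 and 4.91 CPM in the 3-digit mice, 5.63 in 2592, 7.13 in 7_1 and 8.00 to 12.2 in estrus, and its difference was -1.17 (log2, SE 0.213, FDR 7.4e-05). Gpr17, a receptor of committed precursors, fell by 0.69 (FDR 0.0043) and the transcription factor Nkx2-2 by 0.88 (FDR 0.0122). Cntn2, an adhesion protein beside the nodes of Ranvier, had 18.4 to 21.7 CPM in the 3-digit mice against 35.4 to 65.4 in estrus and 39.0 and 46.7 in the others.

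Immediate early genes, which neurons switch on within minutes of activity, were lower too. Of 18 genes 13 were lower and 0 higher over all 6 mice, with a median of -0.653, which was -0.644 in the 3-digit mice (9 lower) and -0.338 in the other mice (0 called). Of the 18, 1 was called between 3-digit and other mice. The share of all genes tested that was lower over all 6 mice was 19.3%. Fos had 10.5, 13.2, 14.3 and 12.8 CPM in the 3-digit mice, 19.5 in 2592, 27.1 in 7_1 and 21.2 to 81.3 with a median of 32.2 in estrus, where the highest was 12_1. Its log2 fold change was -1.31 (SE 0.308, FDR 0.00136). Dusp1, a phosphatase of the same response, had 3.91 to 5.47 CPM in the 3-digit mice, 7.18 and 10.3 in the others and 4.05 to 12.8 in estrus. Arc had 104 to 189 CPM, 83.4 and 239 CPM, and 138 to 292 CPM in the same sets, which overlap (FDR 0.0448). Against 12_1 as the only estrus mouse under 14 weeks, Dusp1, Arc and Npas4 turned to 0.20, 0.07 and 1.90 on the log2 scale, the last from -0.88 over all 6 mice (FDR 0.0467). edgeR called 1 of the 18 over all 6 mice.

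Markers of neurons, microglia and vessels were counted too. Of 13 dentate granule cell markers 6 were lower, led by C1ql2, a secreted synapse organiser, at -1.21 (FDR 0.00026), and of 8 CA1 markers 4 were lower. Of 16 interneuron markers 2 were lower and 1 higher. Reln, a large secreted protein of interneurons, had 4.41 to 10.0 CPM in the 3-digit mice, 14.7 and 15.5 in the others and 7.35 to 18.4 in estrus, while Gad1, a cytosolic enzyme, rose by 0.29 (FDR 0.0089) and Sst and Pvalb did not pass the test (FDR 0.762 and 0.262). Of 14 microglial markers 2 were higher and 3 lower, and of 14 endothelial markers 3 were higher and 1 lower. Over all genes tested 11.3% were higher and 19.3% lower, and the microglial counts were close to these shares.

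Markers of tissue beside the hippocampus were counted as well. With limma 0 of 13 choroid plexus genes, 0 of 5 blood genes, 1 of 4 pituitary genes, 1 of 11 thalamic genes and 1 of 8 meningeal genes were called over all 6 mice, and edgeR called 2 thalamic, 1 pituitary and 1 meningeal gene lower in the 3-digit mice. The choroid plexus list summed to 219 to 839 CPM in the 3-digit mice, 150 to 161 in the others and 131 to 1812 in estrus; its ranges overlapped. Prl, the pituitary hormone prolactin, had 31.5, 1.88, 62.2 and 2.48 CPM in the 3-digit mice and 3.97 to 54.9 in estrus (FDR 0.159). Their part in the results was not tested.

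Of 10 steroid receptors and binding proteins tested 2 were lower, a share close to the 19.3% over all genes, the estrogen-related orphan receptor Esrra at -0.58 (FDR 0.0312) and the glucocorticoid receptor Nr3c1 at -0.21 (FDR 0.0381). The estrogen receptor Esr1 had 0.39 (FDR 0.185) and the progesterone receptor Pgr -0.12 (FDR 0.370). Of 8 neurosteroid genes 1 was higher, Hsd17b4 at 0.28 (FDR 0.0189), and 1 lower, Srd5a3, a reductase named for steroids, at -0.76 (FDR 0.0272). Of 18 glucocorticoid-responsive genes 3 were higher and 1 lower, beside 11.3% higher and 19.3% lower over all genes tested. Of 19 clock genes 2 were higher and 4 lower, close to the shares of 11.3% and 19.3% over all genes, with a median of -0.0997.

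Avpr1b, the vasopressin receptor of CA2, fell by 0.99 over all 6 mice (FDR 0.0424), yet its levels of 0.194 to 1.22 CPM in the 3-digit mice, 0.908 and 1.26 in the others and 0.505 to 1.57 in estrus overlapped. Adpgk, a sugar kinase, had at most 3.21 CPM in the 3-digit mice against 5.07 to 9.19 in estrus and 5.66 and 5.92 in the others. Of 20 genes taken from the study or from earlier results of these data, 8 were lower and 1 higher. Several were chosen on these samples, so this count is not independent evidence of a direction.

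**Figure D3:**
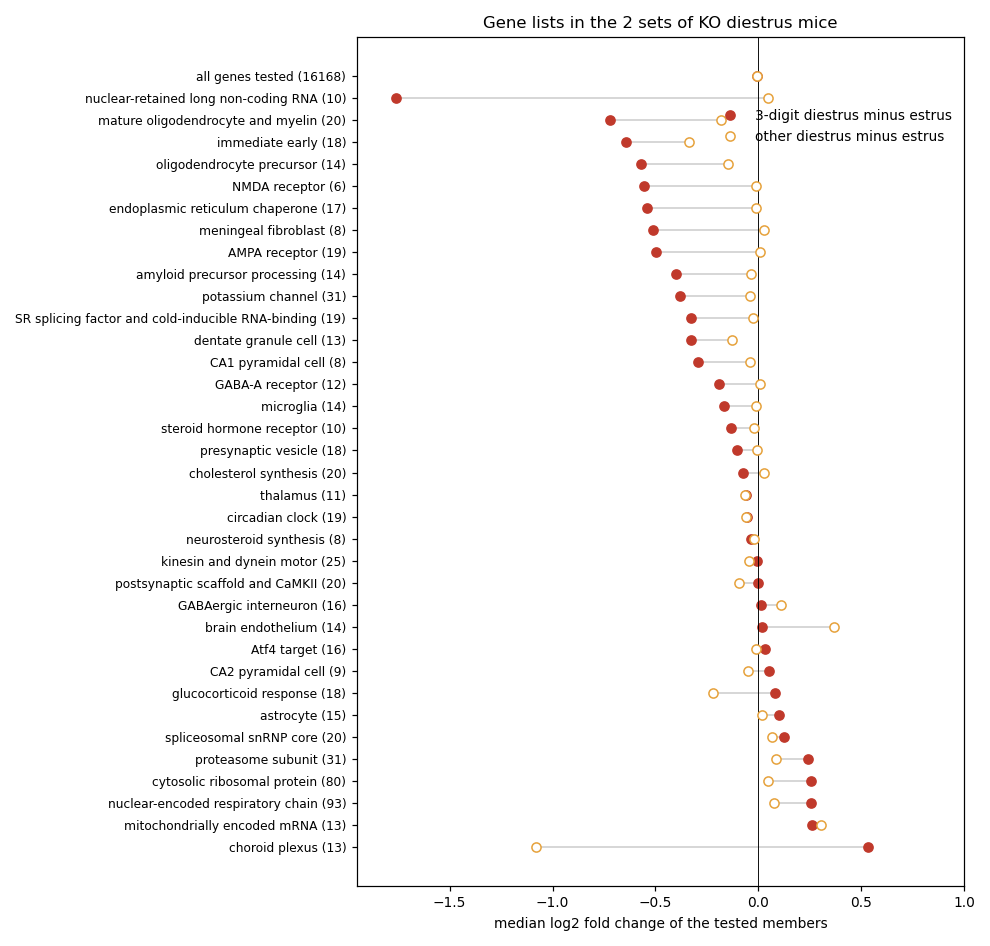
Median log2 fold change against KO estrus of the tested members of each gene list (number in brackets) for the 4 3-digit diestrus mice (filled) and the 2 other diestrus mice (open), with all genes tested in the top row. The nuclear RNA list lies at -1.76 for the 3-digit mice and 0.0491 for the others, the myelin list at -0.719 and -0.18, the immediate early genes at -0.644 and -0.338, and the choroid plexus list at 0.535 and -1.08.

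Genes that set all 6 diestrus mice apart from all 6 estrus mice were few. At 37 genes (0.229%) every diestrus mouse lay above every estrus mouse and at 27 (0.167%) below, and 48 of these 64 were called. Those calls use the same values as the gap and are not independent of it. How many such genes would arise by order alone was not tested. Dctd, a deaminase of nucleotide synthesis, had 6.18 to 8.93 CPM in the 3-digit mice, 5.31 and 5.54 in the others and 4.07 to 4.66 in estrus (FDR 0.00020). Ccp110, a protein of the centriole, had 24.4 to 31.0 CPM in the 3-digit mice, 35.0 and 38.3 in the others and 39.0 to 47.8 in estrus (FDR 9.3e-05). Cpm, a carboxypeptidase of the cell surface, had 9.63 to 13.0 CPM in the 3-digit mice, 13.3 and 14.7 in the others and 15.9 to 36.0 in estrus. At Enpp6, Dctd, Ccp110 and Cpm, chosen after their values were seen, the other diestrus mice lay between the 3-digit and the estrus mice. The cadherin Cdh18 was as low in the others, at 0.410 and 0.723 CPM, as in the 3-digit mice at 0.653 to 1.09, against 1.14 to 2.20 in estrus, and Fgd3 had 1.39 and 2.82 CPM in the others, 1.63 to 2.87 in the 3-digit mice and 3.02 to 4.41 in estrus.

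Cdh18 and Fgd3 were also among the genes with the smallest p in the other mice alone, at -1.45 (unadjusted p = 0.0123) and -0.77 (unadjusted p = 0.0160), with an FDR of 1.0 for every gene of that comparison. On the same rule the interferon-induced Ifit3 had 0.87 (unadjusted p = 0.0083), the kinase Srpk3 1.10 (unadjusted p = 0.0053), the clock gene Per2 -0.58 (unadjusted p = 0.0122) and the junction protein Jup -0.35 (unadjusted p = 0.0167). Ifit3 and Srpk3 were called over all 6 mice too (FDR 0.0108 for each), and Per2 and Jup were not (FDR 0.0540 and 0.0615).

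Leaving out single mice moved the count over all 6 diestrus mice between 2664 and 5840 genes. It was 2664 without the estrus mouse 12_2 and 2747 without 9_1, 3029 without the 3-digit mouse 532 and 3368 without 645, and 5602 and 5611 without the other diestrus mice 2592 and 7_1. In mice of 14 weeks or more, which leaves 2592 and 7_1 against 5 estrus mice, 0 genes were called with limma and 141 had an unadjusted p under 0.05. Under 14 weeks, the 3-digit mice stood against the single estrus mouse 12_1, assumed to vary like the other groups, and 1413 genes were called. With age in weeks as a covariate 2830 genes were called over all 6 mice and 2746 of them were also called without it.

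**Figure D4:**
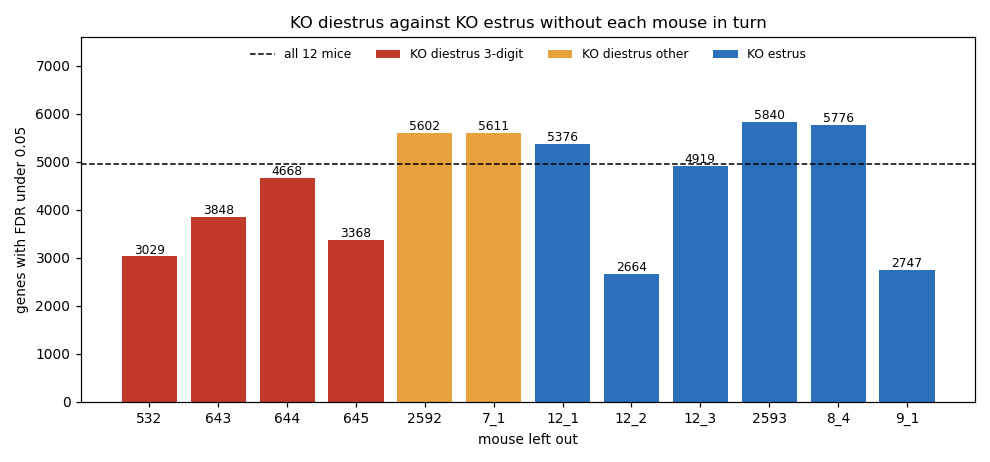
Genes with an FDR under 0.05 between KO diestrus and KO estrus (vertical axis, from 0) after leaving out each mouse in turn (horizontal axis), coloured by set, with a dashed line at 4962 for all 12 mice. The count falls most without estrus mice 12_2 and 9_1 and 3-digit mice 532 and 645, and rises without 2592, 7_1, 12_1, 2593 or 8_4.

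The same split was looked up in wild-type mice, which share none of these libraries. Wild-type diestrus mice 548, 549 and 569 differed from the other 3 wild-type diestrus mice in 4988 genes (30.9%), with 6704 (41.5%) at an unadjusted p under 0.05. Of the 1233 genes called between 3-digit and other KO mice, 1200 had the same sign in the wild-type mice, 900 were called in the same direction and 0 in the opposite one. Those 900 are 73.0% of the KO list and 18.0% of the wild-type list. Over all 16168 genes tested, the log2 fold changes between 3-digit and other mice had a Pearson correlation of 0.661 between KO and wild-type. Agreement was thus not limited to the 1233 genes, and the share of all genes with the same sign was not counted. Meg3 had 110 to 164 CPM in the 3-digit and 855 to 1327 in the other wild-type diestrus mice, and Ndrg2 had 878 to 952 and 351 to 449. Those 3-digit wild-type mice were 11.71 to 12.29 weeks old and the others 16.43 to 17.14, so age and number form cannot be told apart in this look-up. All mice with a 3-digit number in the series were labelled diestrus.

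**Figure D5:**
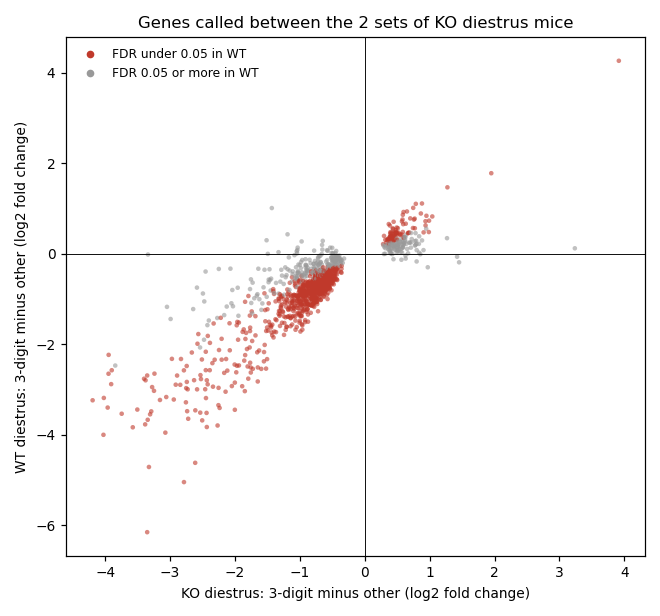
Log2 fold change between 3-digit and other diestrus mice in KO (horizontal axis) and in wild-type mice (vertical axis) for the 1233 genes called in KO, 1 point per gene, coloured where the gene was also called in wild-type mice. Most points lie in the lower left and upper right, with 900 called in the same direction and 0 in the opposite one.

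The diestrus against estrus difference was also set against that of wild-type mice in 1 model. With limma 0 genes were called for the difference between genotypes, and 421 genes (2.6%) had an unadjusted p under 0.05, with 0 called by edgeR and by DESeq2. The 6 KO diestrus mice include 4 with 3-digit numbers and the 6 wild-type diestrus mice 3. The spread between 3-digit and other mice enters this test, so 0 calls do not show that the genotypes are alike. The smallest p among named genes was at Il17ra, an interleukin receptor subunit, where the difference between the genotypes was -1.54 (unadjusted p = 0.00014, FDR 1.0). Without the wild-type 3-digit mice 549, 548 or 569 in turn, 21, 18 and 5 genes were called.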

How the data were processed

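Gene counts were deposited by the authors, who aligned the reads with STAR 2.7.9a to GRCm38 and counted them per gene with featureCounts 2.0.3, per the submitters' processing notes and the study's methods. The authors also deposited log2 CPM (counts scaled to the library total), used here only to check that the same values were rebuilt. The other deposited tables were not used here, and 1 column with no mouse in the sample list was left out. The 55 libraries held 25881295 to 63547098 counts.

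The filter asked for more than 1 CPM in 10 or more libraries and dropped 5 ribosomal RNA genes, which left 16168 genes. TMM scaling, voom with quality weights and limma 3.58.1 (R 4.3.3) were fitted to all 55 mice in 1 model with 10 groups, with Benjamini-Hochberg adjustment. In a second model the KO diestrus group was split by number form. Alternatives were edgeR 4.0.16, DESeq2 1.42.0, other size factors, no weights, no filter, age as a covariate, subsets by age or number, and each mouse left out. Calculations were tested on simulated data.

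Named genes were those with the smallest p and the largest fold change in each direction, the extreme members of each gene list, any member of a list of 20 or fewer, and those on a list taken from the study or earlier results. Members and lists were chosen with earlier results of these data known. The look-up in wild-type mice, the range of young KO females and the comparison of 2592 with 2593 were added after seeing the data. The labels name 1 mouse per library. Some items are not reported here.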

Additional observations from a re-analysis of the deposited data

Results flagged for a closer look

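Single mice stood far from the rest of their group of 6 in 14 of 200 groups of values tested, by Dixon's criterion. Chance meets it in about 1 in 20 groups where values are independent and normally spread around 1 mean. The diestrus group mixes 3-digit and other mice and the genes followed were partly chosen on these data, so that rate is only a rough guide. Mouse 7_1 was higher than the other diestrus mice in myelin genes, with Mag at 125 CPM against 37.2 to 70.0, Gal3st1 at 7.89 against 3.01 to 4.36 and Hapln2 at 1.96 against 0.194 to 0.777. It was also higher in the NMDA receptor subunit Grin1, at 46.6 CPM against 17.5 to 25.1, and in the orphan receptor Esrra, at 14.6 against 5.33 to 8.74, and lower in the proteasome subunit Psmc1, at 348 against 425 to 460.

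Mouse 2592 had 191 CPM of Rian against 145 to 158 in the other diestrus mice. Estrus mouse 12_1 had 81.3 CPM of Fos against 21.2 to 38.9 in the other estrus mice, 36.0 CPM of Cpm against 15.9 to 21.0, 47.8 CPM of Jup against 30.3 to 36.4 and 136 CPM of Peg13 against 164 to 172. Its share of counts on nuclear long non-coding RNAs was 0.259% against 0.352% to 0.404%. Estrus mouse 9_1 had 211 CPM of Rsrp1 against 74.8 to 125, and 8_4 had 113 CPM of S100b against 83.8 to 93.8.

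The 3-digit and the other diestrus mice differed from each other in 1233 genes by limma, although both carry the same labels for genotype and stage.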

How the results depend on the processing

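For KO diestrus against KO estrus, the 4962 genes called became 14 with edgeR, 156 with DESeq2, 254 in voom without quality weights, 2803 with no filter on low counts, 2830 with age as a covariate and 2447 at an FDR under 0.01. They became 0 with only the 2 other diestrus mice, 0 in mice of 14 weeks or more and 1413 in mice under 14 weeks. Leaving out 1 mouse gave 2664 (without 12_2) to 5840 (without 2593) genes. For the 3-digit mice against estrus the 6203 genes became 2407 with edgeR, 2692 with DESeq2 and 2325 without quality weights, and 4227 to 6931 without 1 mouse. For the other diestrus mice against estrus the count of 0 became 1 with DESeq2 and 28 with no filter, and it was 0 to 0 without 1 mouse. For 3-digit against other KO diestrus the 1233 genes became 511 with edgeR, 593 with DESeq2, 497 without quality weights and 1980 with no filter, and 719 (without 7_1) to 1413 without 1 mouse, with 775 without 532. For the difference between genotypes leaving out 1 mouse gave 0 to 21 genes. Why the tools differ was not tested.

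Among the 96 genes followed by name, the log2 fold change turned sign with only the 2 other diestrus mice at Meg3 (0.0625), Malat1 (0.276), Miat (0.145), Snhg11 (0.0442), Rian (0.0203), Luc7l2 (0.0131), Kif5a (-0.0861), Etnppl (-0.0854), Thpo (0.00387), Hapln2 (0.0602), Shisa7 (0.025), Gria2 (0.0209), Gria1 (0.0129), Kcnt1 (0.102), Sv2a (0.0385), Slc17a7 (0.0433), Reln (0.168) and Il17ra (0.0655). It turned in mice of 14 weeks or more at Malat1 (0.263), Miat (0.0331), Snhg11 (0.00148), Rian (0.0399), Dio2 (-0.00171), Kif5a (-0.0765), Aqp4 (0.0316), Etnppl (-0.177), Gria2 (0.00882), Gria1 (0.00826), Kcnt1 (0.0409), Sv2a (0.013), Slc17a7 (0.0135), Reln (0.166) and Il17ra (0.0133). In mice under 14 weeks, with 12_1 as the only estrus mouse, it turned at mt-Nd4l (-0.794), Mbp (0.312), Dusp1 (0.197), Arc (0.0697), Npas4 (1.9), Ifit3 (-0.29), Srpk3 (-0.107), Prl (1.26) and Tbc1d2 (0.62). Leaving out 1 estrus mouse gave Rian -0.133 (without 9_1) to 0.0076 (without 12_3). The cause was not tested. No paired analysis was possible because the replicate numbers only name the mice in order and the labels pair no mice across stages.

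Stage, age and number form overlap in the diestrus mice, the other diestrus mice are only 2, and only 12_1 is a young estrus mouse. Depth was 52307959 to 57198441 counts in the 3-digit mice, 56716667 to 56750196 in the other diestrus mice and 47373740 to 58799748 in estrus.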
